A study of Mus musculus with 40 samples.

Results

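NCoR-only promoter sites are the places at gene starts in mouse liver where the nuclear receptor corepressor NCoR was called by chromatin immunoprecipitation followed by sequencing (ChIP-seq) while its partners SMRT and HDAC3 were not. They were selected on the 3 deposited peak lists themselves. A member is an NCoR peak whose center lay over 200 bp from the center of every SMRT and every HDAC3 peak, and from 1000 bp upstream to 100 bp downstream of a transcription start site (TSS) annotated in mm10. Of 35138 NCoR peaks, 19725 had neither partner and 4511 lay in such a promoter window. The 2976 members met both conditions and made up 8.47% of all NCoR peaks, 15.1% of the NCoR-only peaks and 66.0% of the NCoR promoter peaks. The other NCoR promoter peaks were 716 with both SMRT and HDAC3 (shared promoter sites), 687 with HDAC3 and 132 with SMRT. The NCoR-only peaks away from promoters numbered 16749 and are called distal here. These class sizes follow from the rule and were not tested.

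The livers came from ad libitum fed male C57BL/6 mice of genotype Bcl6 fl/fl, which carry loxP sites in the Bcl6 gene and no Albumin-Cre, so that BCL6 was intact. The labels and methods do not state an age. Each cofactor had 3 libraries from separate animals that the authors pooled into 1 peak list, so no value below exists per animal and no spread between animals can be given. The lists held 35138 NCoR, 10654 SMRT and 14462 HDAC3 peaks with positions only, without a height or score, and the depth behind each is unknown. A place with no SMRT or HDAC3 binding and one with binding under the calling threshold cannot be told apart, and the NCoR list was the longest of the 3.

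NCoR and SMRT are large scaffold proteins that unliganded nuclear receptors and repressors such as BCL6 and REV-ERB bring to DNA. Both carry the deacetylase HDAC3 and need it, and activate it, for much of their repression, with the TBL1X and TBL1XR1 proteins as further subunits. In liver this machinery is known for holding down fasting, lipid and circadian genes. Promoters differ in base composition. Housekeeping genes mostly start in CpG-rich stretches bound by factors such as SP1, ETS proteins, NRF1 and YY1, whereas hepatocyte genes are largely controlled by C/EBP, FOXA, HNF4, HNF1 and HNF6 proteins.

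The sequences below show the 4 motifs that were more frequent in NCoR-only than in shared promoter sites, each at the 3 member sites whose match lay nearest the peak center at a protein-coding promoter outside annotated exons. All are from the RefSeq assembly GRCm38.p6 (mm10), printed 5′ to 3′ on the strand of the gene, with the motif or its reverse complement in capitals and 20 bases either side. The first set carries the ETS motif CCGGAAGT, from genes for the TBC domain protein TBCK, a mitochondrial ribosomal protein and a deubiquitinase.
Tbck, chr3:132684060-132684107, plus strand: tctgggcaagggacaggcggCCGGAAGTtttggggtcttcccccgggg
Mrps35, chr6:147042716-147042763, plus strand: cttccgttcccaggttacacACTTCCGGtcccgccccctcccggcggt
Usp32, chr11:85140263-85140310, minus strand: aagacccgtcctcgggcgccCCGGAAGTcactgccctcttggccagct

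The YY1 motif AANATGGCG is shown at the promoters of the deubiquitinase Usp47, the zinc finger gene Maz and the vesicle trafficking gene Aftph.
Usp47, chr7:112023422-112023470, plus strand: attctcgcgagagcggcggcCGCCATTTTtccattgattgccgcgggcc
Maz, chr7:127027607-127027655, minus strand: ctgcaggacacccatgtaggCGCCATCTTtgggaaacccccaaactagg
Aftph, chr11:20741727-20741775, minus strand: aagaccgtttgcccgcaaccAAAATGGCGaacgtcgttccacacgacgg

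The SP/KLF motif GGGGCGGGG, a GC box, is shown within 1 bp of the center of the sites at Sft2d2, at Ythdc1, a reader of methylated RNA, and at Phip.
Sft2d2, chr1:165194462-165194510, minus strand: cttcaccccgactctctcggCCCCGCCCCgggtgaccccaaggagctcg
Ythdc1, chr5:86804136-86804184, plus strand: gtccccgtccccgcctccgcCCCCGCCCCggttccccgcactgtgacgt
Phip, chr9:82975531-82975579, minus strand: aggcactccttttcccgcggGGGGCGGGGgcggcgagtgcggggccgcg

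The cyclic AMP response element (CRE) TGACGTCA is shown at the sites of the kinase gene Jak1, of Ywhah, which encodes a 14-3-3 protein, and of the lipid hydrolase gene Abhd16a. All 12 of these sites lay in CpG-rich sequence.
Jak1, chr4:101265297-101265344, minus strand: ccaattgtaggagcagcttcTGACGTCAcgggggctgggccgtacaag
Ywhah, chr5:33018700-33018747, plus strand: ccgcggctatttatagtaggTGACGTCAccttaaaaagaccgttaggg
Abhd16a, chr17:35089204-35089251, plus strand: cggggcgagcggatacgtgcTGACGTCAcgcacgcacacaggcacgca

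The rule bounded the distance to a TSS, and within that window the median member center lay at -106 bp, negative meaning upstream, with quartiles at -313 and -9 bp. In 1447 of 2976 members (48.6%, 95% interval 46.8 to 50.4) the center was within 100 bp of the nearest TSS, against 268 of 716 shared promoter sites (37.4%, 33.9 to 41.1). By Fisher's exact test the odds ratio was 1.58 (adjusted p = 1.87e-07). Against the 687 NCoR and HDAC3 promoter sites, where 44.8% lay within 100 bp, the difference missed the threshold (odds ratio 1.16, adjusted p = 0.102), but it passed in 3 of 6 alternative settings, with an odds ratio of up to 1.27. Centers downstream of the TSS made up 21.5% of members, 12.0% of shared and 20.1% of NCoR and HDAC3 promoter sites. Intervals are exact binomial ones, p-values are two-sided and adjusted over the 19 comparisons of site features, and both cover counting error only, since peaks of 1 list are not replicates.

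**Figure D1:**
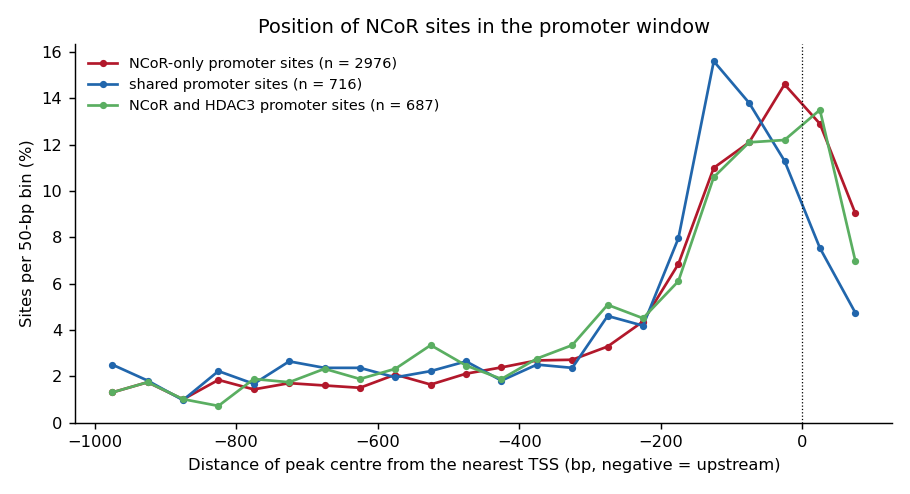
Share of sites (%) per 50-bp bin of the distance from peak center to the nearest TSS (bp, negative upstream) for NCoR-only, shared, and NCoR and HDAC3 promoter sites. NCoR-only sites peaked just upstream of the TSS and had a median of -106 bp, whereas shared sites peaked further upstream, with a median of -136 bp.

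By annotation, 1190 of 2976 member centers lay outside genes, 796 (26.7%) in introns, 750 (25.2%) in untranslated regions, 164 (5.51%) in exons of non-coding transcripts and 76 (2.55%) in coding sequence. The nearest TSS belonged to a protein-coding gene for 2425 members (81.5%), to a lincRNA for 158, to an antisense transcript for 126 and to a microRNA for 32. Among shared promoter sites the protein-coding share was 68.7% (odds ratio 2.0, adjusted p = 1.50e-12) and among NCoR and HDAC3 promoter sites 76.6% (odds ratio 1.35, adjusted p = 0.00666). Divergent promoters, with TSSs on both strands pointing away from each other within 1000 bp, held 496 members (16.7%) and 64 shared sites (8.94%), with an odds ratio of 2.04 (adjusted p = 1.87e-07). The NCoR and HDAC3 class, at 14.8%, did not differ past the threshold (odds ratio 1.15, adjusted p = 0.300), and the odds ratio fell to 0.948 with gene 5′ ends as the only TSSs. A TATA box, TATAAA from 40 to 20 bp upstream of the TSS, was rare. It was found at 28 members (0.941%) against 24 shared sites (3.35%), with an odds ratio of 0.274 (adjusted p = 2.23e-05). The NCoR and HDAC3 class, with 10 of 687 (1.46%), did not differ past the threshold by Fisher's exact test (odds ratio 0.643, adjusted p = 0.273).

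Member sites stood more often alone. Another NCoR peak lay within 10 kb of 1646 members (55.3%), against 75.7% of shared promoter sites (odds ratio 0.397, adjusted p = 8.82e-24) and 61.4% of NCoR and HDAC3 promoter sites (odds ratio 0.777, adjusted p = 0.00666). Distal NCoR-only sites, at 57.6%, were close to members (odds ratio 0.910, adjusted p = 0.0295), and that difference was lost with a distance of 5 kb (odds ratio 0.982, adjusted p = 0.790). The nearest SMRT peak was a median of 40295 bp and the nearest HDAC3 peak a median of 25793 bp from a member. For 2040 members (68.5%) neither partner had a peak within 10 kb.

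Few members hung on the 200 bp limit. Only 8 had a partner center within 250 bp, and 169 within 1000 bp. The member nearest to the limit lay at the head-to-head promoter of Gnpat, which encodes a peroxisomal enzyme of ether lipid synthesis, and 2810004N23Rik, with an HDAC3 center 202 bp away. The next was at Vps28, an ESCRT subunit gene, with HDAC3 220 bp away. Just outside were sites near Sdc2 and the non-coding 4930506C21Rik, with HDAC3 centers 194 and 191 bp away. Where a partner did count as overlapping a promoter NCoR peak, its center was within 100 bp in 96.7% of cases. At the promoter limits, 39 members lay in the last 50 bp upstream, 261 in the last 50 bp downstream, and 166 NCoR-only peaks lay within 50 bp outside.

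Base composition also set the members apart. A site was called CpG-rich when the 500 bp around its center had a GC content of at least 50% and an observed to expected CpG ratio of at least 0.6. That held for 1740 members (58.5%, 56.7 to 60.2), 182 shared promoter sites (25.4%, 22.3 to 28.8), 346 NCoR and HDAC3 promoter sites (50.4%, 46.6 to 54.2) and 591 distal NCoR-only sites (3.53%, 3.25 to 3.82). By Fisher's exact test the odds ratios were 4.13 against shared sites (adjusted p = 1.86e-57), 1.39 against NCoR and HDAC3 sites (adjusted p = 0.000251) and 38.5 against distal sites. The rule placed members at a TSS and distal sites away from one. The contrast with distal sites therefore sets promoters against other sequence and cannot tell NCoR-only sites from promoters in general. Median GC content was 59.6% in members, 57% in NCoR and HDAC3 sites, 51.6% in shared sites and 46.6% in distal sites, and the median CpG ratio was 0.699, 0.632, 0.311 and 0.207. Over the promoters of all 21938 protein-coding genes, centered 100 bp upstream of the gene, 42.7% were CpG-rich, so members lay above and shared sites below the ordinary promoter. That last comparison was not tested. Windows in which soft-masked repeats filled at least 100 of 200 bp made up 1.01% of members and 1.12% of shared sites, with no difference past the threshold (odds ratio 0.901, adjusted p = 0.935). They were rarer in members than in distal sites (4.84%, odds ratio 0.20, adjusted p = 1.29e-27 by Fisher's exact test), again promoters against other sequence.

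**Figure D2:**
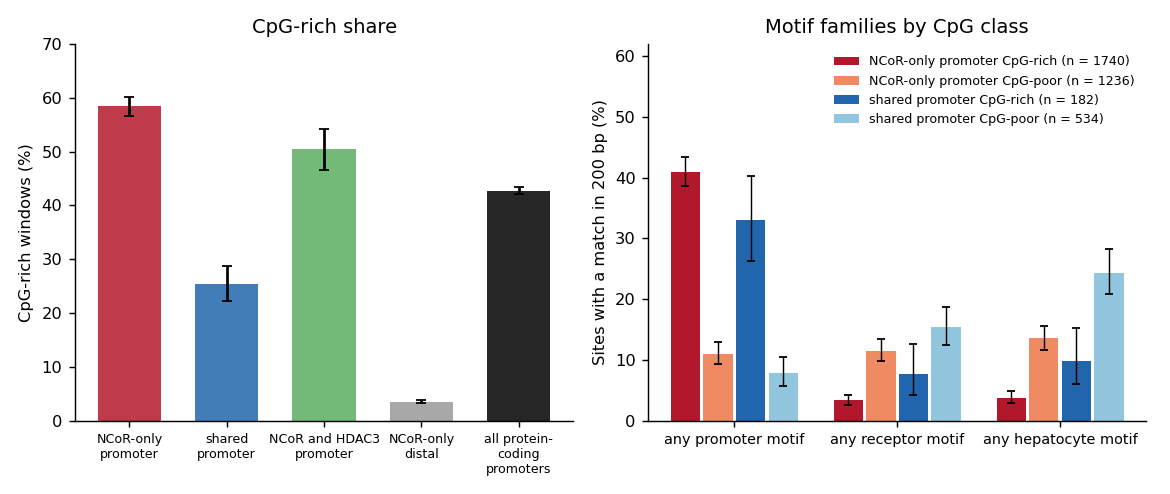
Left, share of CpG-rich 500-bp windows (%) in the site classes and in all protein-coding promoters. Right, share of sites (%) with any promoter, receptor or hepatocyte motif in 200 bp, split by CpG class. Bars are shares with exact 95% intervals. NCoR-only promoter sites were CpG-rich in 58.5% and shared sites in 25.4%, and hepatocyte motifs were less frequent in NCoR-only than in shared sites of either CpG class.

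The CpG-rich and CpG-poor members are described side by side, without a test. Of the 1740 CpG-rich members, 60.1% (57.8 to 62.4) lay within 100 bp of a TSS, 90.2% were nearest a protein-coding gene and 22.4% were divergent. Of the 1236 CpG-poor members these shares were 32.4% (29.8 to 35.1), 69.3% and 8.66%. Another NCoR peak within 10 kb accompanied 49.7% of the CpG-rich and 63.2% of the CpG-poor members.

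Motifs were counted as exact matches on either strand in the 200 bp around each center, and 21 were searched. Against shared promoter sites, 4 were more frequent in members. The SP/KLF motif was in 384 members (12.9%) and 39 shared sites (5.45%), with an odds ratio of 2.57 (adjusted p = 2.07e-08). The ETS motif was in 141 members (4.74%) and 10 shared sites (1.40%), with an odds ratio of 3.51 (adjusted p = 4.25e-05). The YY1 motif was in 55 members (1.85%) and 1 shared site (0.140%), an odds ratio of 13.5 that rests on that single site (adjusted p = 0.000358). The CRE was in 67 members (2.25%) and 6 shared sites (0.838%), with an odds ratio of 2.73 (adjusted p = 0.0261). Over all protein-coding promoters these motifs were in 12.4%, 3.04%, 1.05% and 1.88% of 200-bp windows, which puts members near the ordinary promoter for SP/KLF and shared sites well under it. The CRE difference was also lost with protein-coding transcripts alone (adjusted p = 0.181). None of the 4 passed the threshold when CpG-rich sites alone were compared, where 182 shared sites remained (SP/KLF odds ratio 1.11, ETS 2.02, CRE 1.31, and no YY1 match in those 182). Among CpG-poor sites SP/KLF alone passed (odds ratio 3.02, adjusted p = 0.0476).

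The motifs of several liver-enriched factors, and that of ROR and REV-ERB receptors, went the other way. By Fisher's exact test HNF1 was lower without passing (1.08% of members, 1.82% of shared sites, adjusted p = 0.166). C/EBP motifs (TTACGCAA, TTATGCAA, TTGCGCAA or TTGTGCAA) were in 61 members (2.05%) and 61 shared sites (8.52%), with an odds ratio of 0.225 (adjusted p = 2.06e-13). FOX motifs (TGTTTAC) were in 106 members (3.56%) against 8.24% of shared sites (odds ratio 0.411, adjusted p = 3.44e-06). HNF6 motifs (TATCGATC, TATCGATT, TATTGATC or TATTGATT) were in 44 members (1.48%) against 4.47% (odds ratio 0.321, adjusted p = 2.08e-05). The HNF4 half-site (CAAAGTCCA, CAAAGTTCA, CAAAGGTCA or CAAAGGCCA), which is also contained in the DR1 element, was in 110 members (3.70%) against 8.38% (odds ratio 0.420, adjusted p = 3.80e-06). The RORE (ANTAGGTCA or ANTGGGTCA), to which ROR and REV-ERB receptors bind, was in 58 members (1.95%) against 3.63% (odds ratio 0.527, adjusted p = 0.0261). The C/EBP difference held among CpG-rich sites (odds ratio 0.210, adjusted p = 0.00721) and among CpG-poor sites (odds ratio 0.317, adjusted p = 4.62e-06). FOX and HNF6 passed in CpG-poor sites (odds ratios 0.577 and 0.501, both adjusted p = 0.0468). In CpG-rich sites, with 182 shared sites, neither passed, at odds ratios of 0.446 for FOX and 0.731 for HNF6. The HNF4 half-site passed in neither class (odds ratio 0.356 in CpG-rich and 0.659 in CpG-poor sites), nor did the RORE (0.764 and 0.667). The RORE difference was also lost with protein-coding transcripts alone (adjusted p = 0.131), and that of the HNF4 half-site in 100-bp windows (adjusted p = 0.118).

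Members were nonetheless not devoid of liver motifs. All protein-coding promoters held C/EBP in 1.55%, FOX in 2.05%, HNF6 in 0.802%, the HNF4 half-site in 1.13% and the RORE in 0.934% of windows, each below its share in members. For C/EBP the intervals overlapped (1.57 to 2.63% in members, 1.39 to 1.73% in all promoters). The windows are also unlike, centered on the peak in members and 100 bp upstream of the gene in all promoters. Grouped by family, 234 members (7.86%) had any of 4 hepatocyte motifs (C/EBP, FOX, HNF1 and HNF6), against 20.7% of shared sites and 4.85% of all promoters. Any of 4 receptor motifs (RORE, ERR, DR1 and the HNF4 half-site) was in 6.72% of members, 13.4% of shared sites and 2.60% of all promoters. Any of 10 promoter motifs (ETS, NRF1, YY1, SP/KLF, NF-Y, CRE, ZBTB33, ZNF143, RFX and E-box) was in 28.6% of members, 14.2% of shared sites and 27.6% of all promoters. In the 1236 CpG-poor members the hepatocyte family reached 13.6% and the promoter family 11%, while in the 1740 CpG-rich members they stood at 3.79% and 41.0%. None of the 21 motifs was found in 1652 members (55.5%), 53.5% of shared sites and 61.3% of all promoters. These family shares are descriptions without a test.

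**Figure D3:**
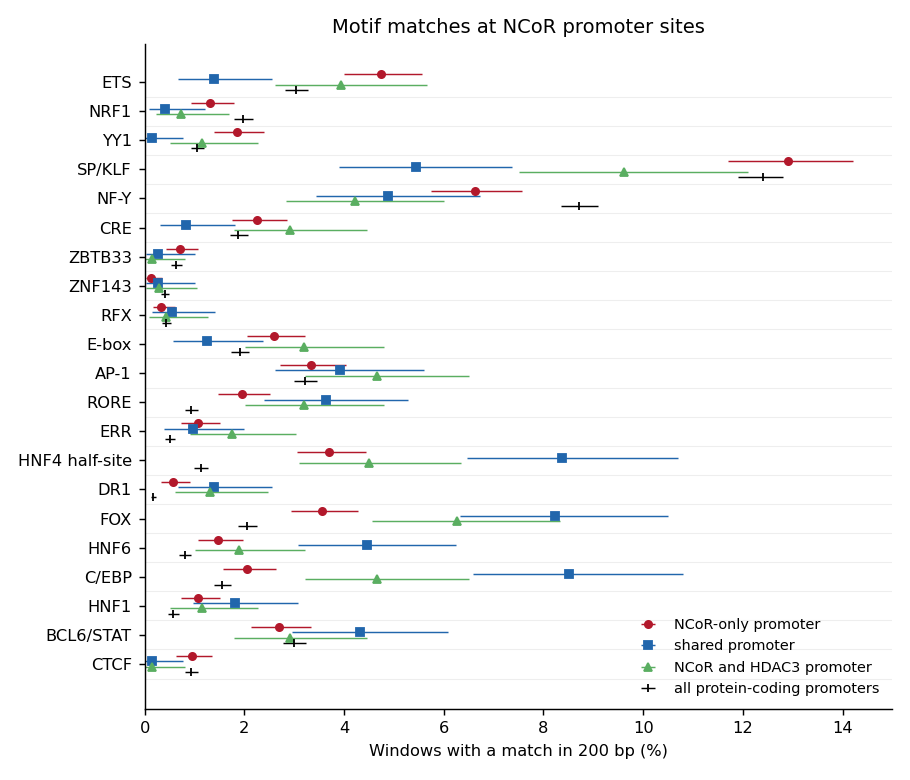
Share of 200-bp windows (%) with at least 1 match for each of 21 motifs, with exact 95% intervals, in NCoR-only, shared, and NCoR and HDAC3 promoter sites and in all protein-coding promoters. SP/KLF was in 12.9% of NCoR-only and 5.45% of shared sites, and C/EBP in 2.05% and 8.52%. NCoR and HDAC3 sites held these motifs in 9.61% and 4.66%.

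The remaining motifs did not pass against shared promoter sites. NRF1 (GCGCATGCG) was in 39 members (1.31%) and 3 shared sites (adjusted p = 0.0717), and NF-Y (CCAATCAG, CCAATCGG, CCAATGAG or CCAATGGG) in 6.62% and 4.89% (adjusted p = 0.144), against 1.97% and 8.72% of all promoters. The E-box GTCACGTG was in 2.59% and 1.26% (adjusted p = 0.0604), and the BCL6/STAT motif (TTCCNAGAA, TTCCNGGAA, TTCTNAGAA or TTCTNGGAA) in 2.69% and 4.33% (adjusted p = 0.0525), against 1.91% and 2.99% of all promoters. The DR1 element, to which PPAR and HNF4 bind, was in 17 members (0.571%) and 10 shared sites (1.40%, adjusted p = 0.0525), against 0.173% of all promoters. AP-1 (TGACTCA) was in 3.33% of members and 3.91% of shared sites, ERR (TCAAGGTCA or TGAAGGTCA) in 1.08% and 0.978%, RFX (GTTGCCATG) in 0.336% and 0.559% and ZNF143 (TACAATTCC) in 0.134% and 0.279%, against 3.22%, 0.501%, 0.428% and 0.406% of all promoters. Some of these passed in an alternative setting. By Fisher's exact test the lowest adjusted p over the settings was 0.0272 for NRF1 and 0.0173 for the E-box, both higher in members, and 0.00101 for DR1, 0.00879 for BCL6/STAT and 0.0183 for HNF1 (1.08% of members and 1.82% of shared sites), all lower in members. CTCF was in 28 members (0.941%) and 1 shared site (adjusted p = 0.0534, and 0.0387 with an overlap distance of 400 bp), against 0.939% of all promoters.

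Against the 687 NCoR and HDAC3 promoter sites only C/EBP (4.66%, odds ratio 0.428, adjusted p = 0.00771) and FOX (6.26%, odds ratio 0.553, adjusted p = 0.0262) differed, both lower in members. Neither passed when gene 5′ ends were the only TSSs or within either CpG class, where fewer sites remained, while the odds ratio ran from 0.372 to 0.510 for C/EBP and from 0.397 to 0.743 for FOX over all settings. No motif was more frequent in members than in this class at the adjusted threshold. By Fisher's exact test at an unadjusted p under 0.05 the SP/KLF motif (9.61%, p = 0.0170), NF-Y (4.22%, p = 0.0174) and CTCF (0.146%, p = 0.0303) were higher and DR1 (1.31%, p = 0.0452) was lower. Against distal NCoR-only sites 8 motifs were higher in members and 10 lower. By the rule this contrast sets promoters against other sequence, so it cannot tell NCoR-only sites from promoters in general. The SP/KLF motif was in 1.07% of distal sites (odds ratio 13.6, adjusted p = 9.77e-184), ETS in 0.382% (odds ratio 13.0, adjusted p = 4.94e-67) and ZBTB33 (TCTCGCGAG) in 1 of 16749 (0.00597%) against 21 members (0.706%) and 0.634% of all promoters. HNF6 was in 4.83% of distal sites (odds ratio 0.296, adjusted p = 5.24e-20) and the RORE in 4.47% (odds ratio 0.425, adjusted p = 7.16e-12). All 10 lower motifs lost the threshold among CpG-rich sites.

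Where the matches lay within a site also differed between motifs. In the 500 bp around the center of members, 79 of 170 HNF4 half-site matches (46.5%, 38.8 to 54.3) fell within 50 bp of the center, where an even spread gives 20.3%. The RORE (44.8%, 35.0 to 54.8), HNF6 (45.8%, 34.0 to 58.0), C/EBP (37.9%, 28.5 to 48.0), CRE (37.8%, 28.2 to 48.1), ETS (33.6%, 27.7 to 39.9) and E-box (31.1%, 24.3 to 38.5) were also gathered at the center. So were DR1 (42.3% of 26 matches, 23.4 to 63.1) and ERR (34.4%, 22.9 to 47.3). FOX (25.2%, 19.5 to 31.7), HNF1 (27.8%, 16.5 to 41.6) and BCL6/STAT (17.0%, 12.4 to 22.5) had intervals that included an even spread. SP/KLF, at 23.3% (20.7 to 26.1), and NF-Y, at 25.2% (21.2 to 29.6), lay slightly above an even spread. YY1 was even, with 30 of 150 matches (13.9 to 27.3%). NRF1, at 12.2% (7.37 to 18.5), and CTCF, at 9.52% (3.58 to 19.6), were less frequent near the center than an even spread. In shared promoter sites 58.7% of 75 C/EBP matches were central, 39.4% of 94 FOX matches and 37.7% of 77 HNF4 half-site matches. Matches in 1 site are not independent, and these shares carry no test.

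**Figure D4:**
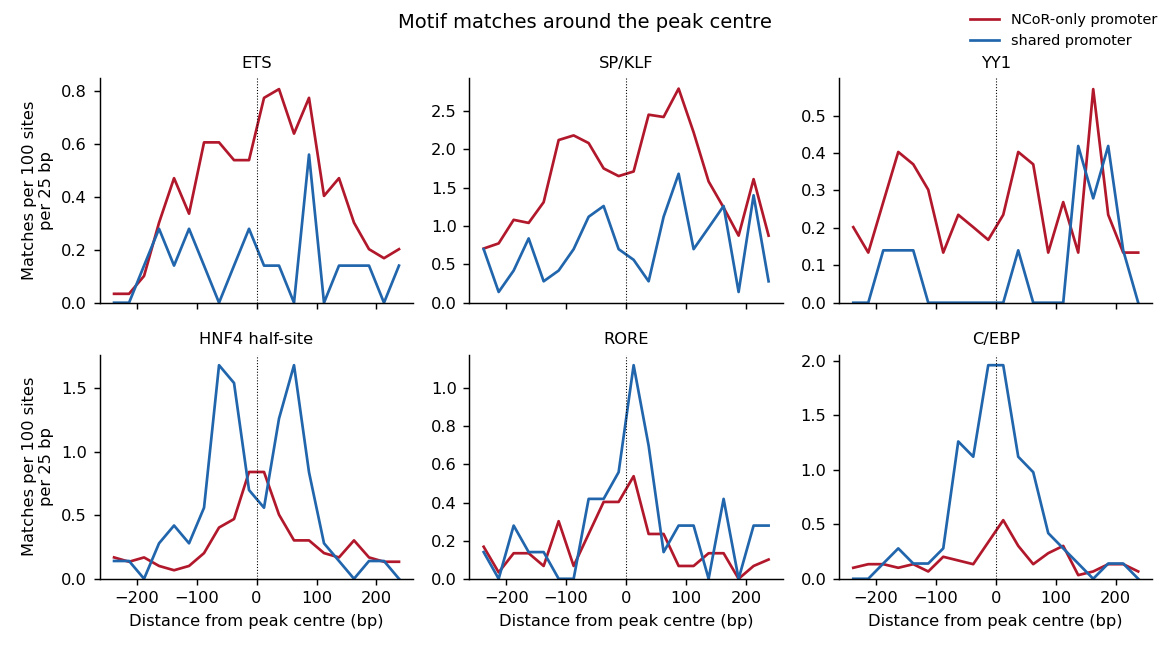
Matches per 100 sites in 25-bp bins against the distance from the peak center (bp) for 6 motifs, in NCoR-only and shared promoter sites. In NCoR-only sites the HNF4 half-site, RORE and C/EBP matches gathered at the center (46.5%, 44.8% and 37.9% within 50 bp) although C/EBP stayed below its level in shared sites, whereas YY1 (30 of 150) did not gather there.

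The members lay at the promoters of 2631 of 21938 protein-coding genes (12.0%). Shared promoter sites lay at 513 genes (2.34%) and any NCoR promoter peak at 3713 genes (16.9%). Of the 2631 genes, 2548 had 1 member site, 82 had 2 and 1 had 3. That gene was Mia2, which encodes a protein of the secretory pathway and has 10 annotated TSSs. Genes with 2 sites included Arg1, the urea cycle arginase, with centers at -68 and -923 bp of its single annotated TSS and the nearest SMRT and HDAC3 peaks over 20 kb away. Aasdh, Aifm2 and Atxn7l3 also had 2. A shared promoter site accompanied the member at 44 genes and an NCoR and HDAC3 site at 40. With each distal shared site assigned to its nearest protein-coding TSS, 799 of the 2631 genes (30.4%) had one, against 54.4% of the 513 genes with a shared promoter site and 19.5% of all genes.

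Genes were next read by function in 36 lists, each set against the 12.0% of all genes with a member site and described by counts without a test. That share covers all protein-coding genes, expressed in liver or not, and no list was set against expressed genes alone. Most lists above it were also above the 16.9% of all genes with any NCoR promoter peak. Their excess is therefore not particular to member sites. Most lists for translation and mitochondria lay above the 12.0%. The exact intervals of the cytosolic ribosomal (10.2 to 27.4%) and oxidative phosphorylation (11.2 to 28.8%) lists included it. Member sites lay at 23 of 78 mitochondrial ribosomal protein genes (29.5%), among them Mrps18a at -6 bp, Mrps16 at -12 bp and Mrpl40 at -14 bp, and none of the 78 had a shared promoter site, against 2.34% of all genes. Genes for mitochondrial import had them in 9 of 25 (36.0%), including Timm9 at -3 bp, Timm10 at -4 bp and Tomm6 at -10 bp of the translocases of the inner and outer membrane. Translation initiation and elongation factors had 12 of 47 (25.5%), with Eif4a2, the helicase of cap-dependent initiation, at 22 bp. Cytosolic ribosomal protein genes had 15 of 85 (17.6%), with Rpl27 at -13 bp and Rps4x at 16 bp, and oxidative phosphorylation subunits 16 of 85 (18.8%), with Uqcrq of complex III centered on its TSS and Ndufab1 of complex I at 3 bp. Aminoacyl-tRNA synthetases, with 5 of 37 (13.5%), were near the background. Most of these sites were CpG-rich, 20 of 23 genes in the mitochondrial ribosomal list and 12 of 15 in the cytosolic one.

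Lists of other general cell functions lay on both sides of the background. Proteasome subunits had member sites at 11 of 49 genes (22.4%), with Psmd8 at -8 bp and Psmd12 at -10 bp. Splicing proteins had 11 of 53 (20.8%), Mediator subunits 6 of 30, ubiquitin-conjugating enzymes 6 of 32 (18.8%), autophagy proteins 3 of 18 (16.7%) and RNA polymerase subunits 4 of 28 (14.3%). Nucleoporins had 2 of 20, DNA replication proteins 2 of 32 (6.25%) and clustered histone genes 3 of 67 (4.48%). The Zfp zinc finger family had 59 of 394 (15%). The exact intervals of all the lists of this paragraph included 12.0%.

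Among regulators, clock genes had member sites at 7 of 19 (36.8%, 16.3 to 61.6). These were Nr1d1 at -8 bp, which encodes the NCoR-binding receptor REV-ERBα, Bhlhe41 at 17 bp and Nfil3 at -19 bp, both repressors, and Per1, Per3, Tef and Ciart at -120, -238, -647 and -556 bp. The Nfil3 site held a RORE and had HDAC3 and SMRT peaks 260 and 293 bp from its center, just past the limit. Arntl and Rora had an NCoR and HDAC3 site instead. Nuclear receptors had member sites at 14 of 48 (29.2%) and shared promoter sites at 7 (14.6%). Those with a member site included Ppard at 3 bp, the xenobiotic receptor genes Nr1i3 at 1 bp and Nr1i2 at -58 bp, the oxysterol receptor gene Nr1h3 at -17 bp, the bile acid receptor gene Nr1h4 at -201 bp and the thyroid hormone receptor genes Thra and Thrb at -502 and -69 bp. Nr1i3 also had a shared site at -925 bp. Of the hepatocyte transcription factors 5 of 18 had a member site (27.8%, 9.69 to 53.5), among them Hnf4a at -43 bp, Cebpa at -111 bp, Tcf7l2 at 3 bp and Onecut1 at -158 bp.

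In the list of 8 genes of the corepressor complex and its partners, 2 had a member site. The exact interval of that share, 3.19 to 65.1%, included the 12.0% of all protein-coding genes. Ncor1 had a CpG-rich site at -61 bp with a YY1 motif, and Tbl1x had one at -115 bp. Tbl1xr1 had 2 shared promoter sites, at -482 and 66 bp, and no member site. The other 5 of the 8 genes of this list had no NCoR peak at their promoters.

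**Figure D5:**
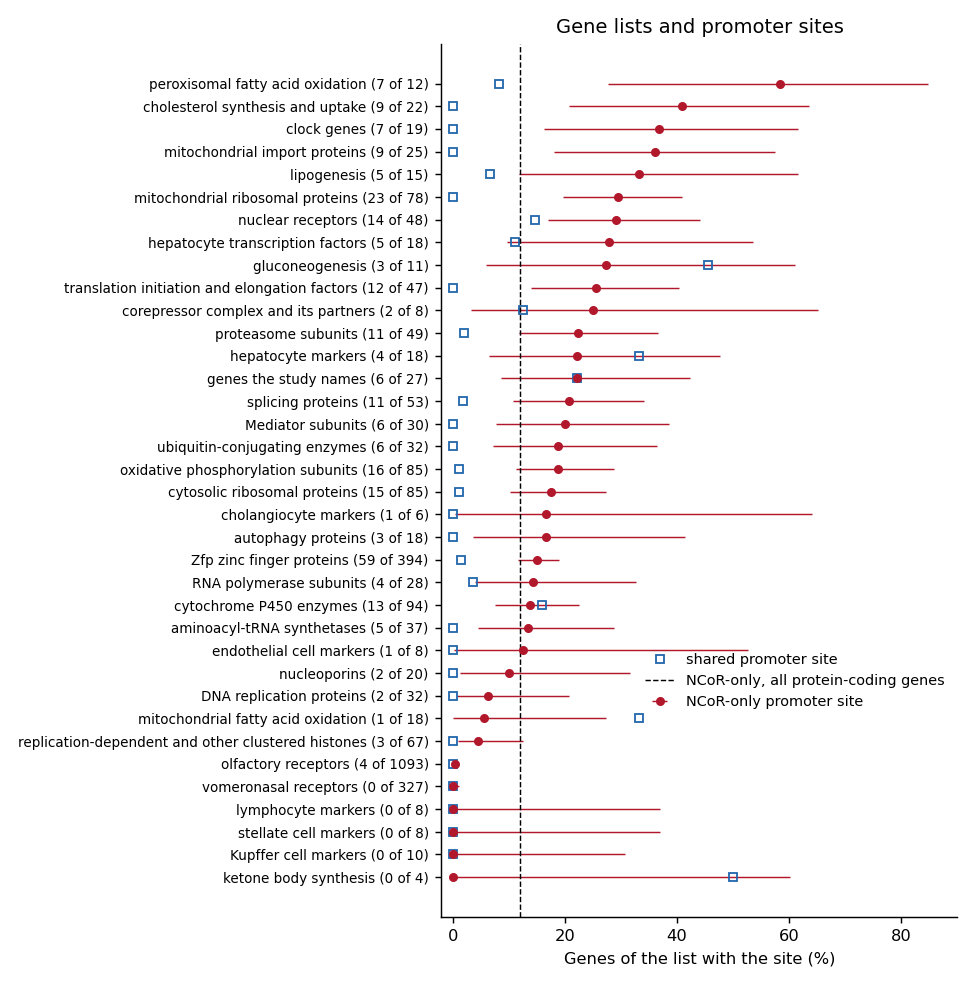
Percent of the genes of each of 36 lists with an NCoR-only promoter site (filled, with exact 95% intervals) and with a shared promoter site (open squares). The dashed line marks the 12.0% of all protein-coding genes with an NCoR-only site. Peroxisomal oxidation (7 of 12) was highest. Mitochondrial oxidation (1 of 18) lay below the line with an interval that included it, while 33.3% of its genes had a shared site.

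Metabolic genes were counted by pathway. Peroxisomal fatty acid oxidation had member sites at 7 of 12 genes (58.3%, 27.7 to 84.8) and a shared promoter site at 1, Abcd2. They included Ehhadh, the bifunctional enzyme, at -96 bp, the thiolase genes Acaa1a and Acaa1b at -195 and -126 bp, the transporter gene Abcd3 at -64 bp, the thioesterase gene Acot8 at -333 bp and Scp2 at -792 bp. Mitochondrial fatty acid oxidation had a member site at 1 of 18 genes (5.56%, 0.141 to 27.3), Etfb at -99 bp, and shared promoter sites at 6 (33.3%). Ketone body synthesis had none of 4 (exact interval up to 60.2%), with a shared site at Bdh1 among others. The member intervals of mitochondrial oxidation and ketone body synthesis both included the 12.0% of all genes. The 2 oxidation lists were not tested against each other. Cholesterol synthesis and uptake had 9 of 22 (40.9%, 20.7 to 63.6). It included Cyp51 at 37 bp and Sc5d at -71 bp of sterol synthesis, and Insig2 at 48 bp and Insig1 at -171 bp, which hold the SREBP regulators in the endoplasmic reticulum.

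Lipogenesis had member sites at 5 of 15 genes (33.3%, 11.8 to 61.6), among them Thrsp at -18 bp, Gpam at -34 bp, Me1 at -59 bp and Fasn at -203 bp, and a shared site at 1, Elovl6. Gluconeogenesis had 3 of 11 (27.3%, 6.02 to 61), Ppargc1a at -5 bp with a CRE, Slc37a4 at -20 bp and Fbp1 at -729 bp, and shared promoter sites at 5 (45.5%). Fbp1 carried both kinds, its shared site being at -45 bp. Any NCoR promoter peak was at 46.7% of lipogenesis and 72.7% of gluconeogenesis genes, against 16.9% of all genes. Cytochrome P450 genes had 13 of 94 (13.8%), near the background, and shared sites at 15 (16.0%). Among them the Cyp3a11 site at -37 bp held a RORE, an HNF4 half-site and a FOX motif. These P450 families, like the Acot and Acnat genes, include near-identical copies, where reads mapping to more than 1 place were dropped.

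Of 27 genes named by the study, 6 had a member site and 6 a shared promoter site (22.2% each, 8.62 to 42.3), and 13 had an NCoR promoter peak of any kind (48.1%). Over all genes the shares were 12.0%, 2.34% and 16.9%, so the interval included the background for member sites and lay above it for shared sites. The member sites were at Fads2, a fatty acid desaturase gene, at 48 bp, Fgf21, a fasting hormone gene, at -62 bp, Acnat2, an acyltransferase gene, at -73 bp, Ehhadh at -96 bp, the acyl-CoA synthetase gene Acss3 at -141 bp and the thioesterase gene Acot2 at -378 bp. All but Fads2 were CpG-poor. The nearest SMRT or HDAC3 peak was 4528 bp away at Fgf21, 4871 bp at Ehhadh, 2313 bp at Acss3, 2106 bp at Acnat2, 5684 bp at Acot2 and 20736 bp at Fads2. The neighboring thioesterase genes differed, with a shared site and an NCoR and HDAC3 site at Acot1, a shared site at Acot3 and an NCoR and HDAC3 site at Acot4. Abcd2, Bdh1 and Por were among the genes with shared promoter sites. The list was chosen by the study on this series, so it is not independent evidence.

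The longest exon-free stretch of each of these 6 sites is printed next, since they are the study's own genes with NCoR and without a called partner. Capitals mark any of the 21 motifs, and the single match is the NF-Y motif at Ehhadh. Only exact matches count, so elements that depart from the listed strings are not marked. The Fads2 stretch is short because most of that site lies in the first exon.
Acnat2, chr4:49408152-49408338, minus strand: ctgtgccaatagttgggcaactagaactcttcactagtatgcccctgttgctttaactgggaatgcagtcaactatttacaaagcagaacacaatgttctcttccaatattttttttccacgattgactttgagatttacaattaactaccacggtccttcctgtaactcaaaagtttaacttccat
Acot2, chr12:83987369-83987597, plus strand: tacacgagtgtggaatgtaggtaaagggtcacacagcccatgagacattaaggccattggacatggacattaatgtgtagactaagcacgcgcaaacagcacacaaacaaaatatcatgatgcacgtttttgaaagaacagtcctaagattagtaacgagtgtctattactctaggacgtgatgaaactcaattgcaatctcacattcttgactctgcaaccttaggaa
Acss3, chr10:107123695-107123923, minus strand: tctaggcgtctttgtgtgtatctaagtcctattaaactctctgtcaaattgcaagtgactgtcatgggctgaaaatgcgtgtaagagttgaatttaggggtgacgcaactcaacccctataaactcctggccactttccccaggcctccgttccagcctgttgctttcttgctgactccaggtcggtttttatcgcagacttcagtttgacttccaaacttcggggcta
Ehhadh, chr16:21787808-21788017, minus strand: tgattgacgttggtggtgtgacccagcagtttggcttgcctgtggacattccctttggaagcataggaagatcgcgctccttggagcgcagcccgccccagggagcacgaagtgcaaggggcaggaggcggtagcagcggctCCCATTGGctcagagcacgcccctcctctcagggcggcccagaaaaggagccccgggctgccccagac
Fads2, chr19:10101747-10101812, minus strand: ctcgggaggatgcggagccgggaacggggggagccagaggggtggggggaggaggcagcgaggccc
Fgf21, chr7:45615491-45615666, minus strand: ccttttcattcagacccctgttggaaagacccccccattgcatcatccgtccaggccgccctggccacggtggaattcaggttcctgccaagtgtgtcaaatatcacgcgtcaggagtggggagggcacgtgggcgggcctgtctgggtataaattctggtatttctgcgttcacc

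Markers of cell types give a check on the tissue. Of 18 hepatocyte markers, 15 had an NCoR promoter peak (83.3%), against 16.9% of all protein-coding genes. A member site was at 4, Alb (-107 bp, with an HNF1 motif, GTTAATNAT, found in 0.574% of all promoters), F2 (-65 bp, with a shared site at -769 bp), Ass1 (-107 bp) and Serpina1c (-195 bp), and a shared promoter site at 6. No Kupffer cell (10 genes), stellate cell (8) or lymphocyte (8) marker had any NCoR promoter peak, against the same 16.9%, and these lists are short. Member sites were at 1 of 8 endothelial markers, Oit3, and at 1 of 6 cholangiocyte markers, Sox9. Olfactory receptors had member sites at 4 of 1093 genes (0.366%, 0.0998 to 0.934) and vomeronasal receptors at 0 of 327, an exact interval of up to 1.12%.

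The X chromosome held 57 members (1.92%) and 5 shared promoter sites (0.698%), with an odds ratio of 2.78 (adjusted p = 0.0325). With protein-coding TSSs alone the odds ratio was 2.67 and the adjusted p 0.0760, so that this difference depends on 5 sites and on the TSS set. Against NCoR and HDAC3 promoter sites (1.89%) the odds ratio was 1.01.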

How the data were processed

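The authors sequenced cofactor ChIP libraries from livers crosslinked with disuccinimidyl glutarate and formaldehyde as single-end reads, aligned uniquely mapping reads to mm10 with Bowtie, kept 1 tag per position, and called peaks with HOMER and DESeq2 over 3 libraries against input. They deposited peak positions only (chromosome, start and end), as intervals of 228 bp for NCoR and 212 bp for SMRT and HDAC3. Of 40 samples, 9 libraries stand behind the 3 lists used, and the other 31 samples were not analysed here. Removal of reads mapping to several places lowers detection at near-identical genes.

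Centers were compared at 200 bp, the study's own overlap distance. TSSs came from the basic GENCODE vM21 annotation, and sequence from RefSeq GRCm38.p6, the patch-updated release of the same build, in which every peak fell inside its chromosome. Protein-coding genes were those on the nuclear chromosomes (21938). Shares carry exact binomial 95% intervals. Classes were compared with two-sided Fisher's exact tests, and p-values were adjusted by Benjamini-Hochberg over 19 feature tests and over the 21 motifs of each comparison, at 0.05 (Python 3, SciPy). The scripts were tested on simulated peaks. Named genes were the 5 with most member sites, up to 3 per list nearest a TSS, the 3 with a match nearest the center per enriched motif, all study and corepressor genes, and sites at the limits. Further genes of a list were named after their values were seen. Some genes of the lists are counted but not reported by name here. Members, lists and motifs were chosen with earlier results of these data known.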

Additional observations from a re-analysis of the deposited data

How the results depend on the processing

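In all, 13 settings were tried, of which 12 were planned and the split to CpG-poor sites was added after the data were seen, as were the settings for repeats, the X chromosome and part of those for the motif comparisons against NCoR and HDAC3 and distal sites. The number of members ran from 2424 to 3078, and their percentage of NCoR-only sites was 15.6 with a promoter of 500 bp either side, 12.7 with protein-coding transcripts and 12.3 with gene 5′ ends only. The differences from shared promoter sites in CpG-rich share (odds ratio 3.68 to 5.09), position (1.27 to 1.68), protein-coding share (1.97 to 2.42), divergent promoters (1.98 to 2.25), TATA boxes (0.265 to 0.287) and NCoR neighbors (0.372 to 0.472) kept their direction and passed the threshold in every setting run on them. Those numbered 7 for CpG-rich share, 6 for position and neighbors, 5 for divergent promoters and TATA boxes and 4 for protein-coding share. The splits by CpG class were run on the motif results only. Of the results on the number of motifs past the threshold, the 4 higher and 5 lower against shared promoter sites became 0 and 1 in CpG-rich sites and 1 and 3 in CpG-poor sites, and ran up to 6 higher and 7 lower in the other settings (both with soft-masked bases removed). The 2 lower against NCoR and HDAC3 sites became 4 with 500 bp either side, 1 with protein-coding transcripts, 1 in a 100-bp motif window, and 0 with gene 5′ ends, in CpG-rich and in CpG-poor sites. The 8 higher and 10 lower against distal sites kept 6 higher and 0 lower in CpG-rich sites, and became 5 and 3 in CpG-poor sites. The cause was not tested. The CpG settings leave fewer sites to compare, and some odds ratios moved as well. In CpG-rich sites SP/KLF against shared sites went from 2.57 to 1.11, and HNF6 against distal sites from 0.296 to 2.38. C/EBP against shared sites stayed between 0.134 and 0.317 over all settings.

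Against NCoR and HDAC3 sites, position at the TSS passed with odds ratios of 1.20 (overlap 100 bp), 1.27 (gene 5′ ends) and 1.24 (within 200 bp of the TSS). Divergent promoters turned to 0.948 with gene 5′ ends. Neighbors against distal sites no longer passed with gene 5′ ends (0.925) or within 5 kb (0.982). The X chromosome difference from shared sites no longer passed with protein-coding transcripts (2.67) or gene 5′ ends (2.61), and that from NCoR and HDAC3 sites turned to 0.978, 0.940 and 0.872 with an overlap of 100 bp, protein-coding transcripts and gene 5′ ends. Repeats turned to 1.35 against shared sites with 500 bp either side, and to 0.922 against NCoR and HDAC3 sites with protein-coding transcripts.

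Against shared sites ERR gave odds ratios of 0.989 (overlap 400 bp), 0.786 (500 bp either side), 0.930 (protein-coding), 0.829 (gene 5′ ends), 0.962 (100-bp window), 0.997 (soft-masked bases removed) and 0.364 (CpG-rich), ZBTB33 0.842 (100-bp window), and in CpG-poor sites RFX gave 1.30 and AP-1 1.17. Against NCoR and HDAC3 sites HNF1 gave 1.03 (overlap 100 bp), 1.0 (100-bp window), 1.08 (soft-masked bases removed) and 1.15 (CpG-poor), BCL6/STAT 1.22 (gene 5′ ends), 1.22 (100-bp window) and 1.11 (CpG-rich), RFX 1.15 (100-bp window), ETS 0.994 and the HNF4 half-site 1.12 (CpG-rich), and CRE 1.38 and ERR 1.15 (CpG-poor). Against distal sites CTCF gave 0.703 (100-bp window) and RFX 0.871 (CpG-poor). HNF1 gave 1.02 (CpG-rich) and 1.40 (CpG-poor), and in CpG-rich sites FOX gave 1.33, HNF6 2.38 and BCL6/STAT 1.21. These last 4 motifs were past the threshold, lower in members, over all sites, and the other motifs that changed direction were past it neither over all sites nor in the setting given.

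YY1 had no finite odds ratio in CpG-rich sites (0 of 182 shared sites). No paired analysis was possible because the 3 libraries behind a peak list have no values of their own in it. For the same reason no replicate was left out, and without a score no stricter threshold was run. Depth and signal over input are unknown, which limits every statement on a missing partner.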
